A study of Mus musculus with 4 samples.

Results

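Igfbpl1, Sox11, Sox4, Neurod1, Dcx, Eomes, Prox1, Calb2 and Hopx are 9 genes used to mark the steps from stem cell to young neuron in the adult hippocampus. They were looked up by gene symbol among the 31055 features counted in every library, and all 9 of 9 were found. The data were single-cell transcriptomes of dissected hippocampi from C57BL/6J mice, taken with a 3′ droplet method that counts unique molecular identifiers (UMIs). There were 2 libraries from wild-type (WT) mice and 2 from Dp(10)2Yey littermates, each from 1 male at 3 months of age. Dp(10)2Yey mice are a model of Down syndrome and carry a hemizygous duplication on chromosome 10 that runs from Prmt2 to Pdxk. The libraries were prepared over 2 days with 1 mouse of each genotype a day, and the sources used here do not give which replicates shared a day. With 1 library per mouse, mouse and library cannot be told apart.

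Depth differed between libraries. WT replicate 1 held 1039 cell barcodes and 3002546 UMIs, and WT replicate 2 held 1708 barcodes and 6848466 UMIs. Dp(10)2Yey replicate 1 held 1372 barcodes and 5112759 UMIs, and Dp(10)2Yey replicate 2 held 2345 barcodes and 9612011 UMIs. After barcodes with fewer than 200 genes and red blood cells were removed, 6246 of 6464 barcodes were kept, that is 1014, 1681, 1348 and 2203 in the same order. The median barcode held 2118, 3703, 3391 and 3677 UMIs, so WT replicate 1 was the shallowest on both counts. Barcode sequences shared by any pair of libraries numbered 8, and 0 of them lay in a stage class. Barcodes were clustered with the 9 genes left out of the features, so no member was itself a feature. Genes that overlap a member, such as Gm26735 on the strand opposite to Sox4, were not left out of the first clustering. Of these only Prox1os and Hopxos were left out of the second clustering. The part of such genes in placing barcodes was not tested. Classes were named from marker lists, and each name means that the barcodes resemble that type. A difference from the study may come from these rebuilt names.

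In the dentate gyrus, quiescent radial stem cells become active, give rise to dividing intermediate progenitors and neuroblasts, and these leave the cell cycle as immature granule neurons. Transcription factors are switched on and off along this path, and structural and calcium-binding proteins follow as the young neuron migrates and extends its processes. Many of these genes are also used by other brain cells, such as oligodendrocyte precursors, interneurons and Cajal-Retzius neurons.

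The 3 stage classes were small. The neural progenitor-like class had 60 barcodes, with 4 and 13 in the WT and 15 and 28 in the Dp(10)2Yey libraries. Its genes of highest fold over the rest of the parent cluster were 1500015O10Rik, Mag and Frzb, followed by Hopxos and, further down, the progenitor gene Riiad1. All 18 genes of the progenitor list were detected with Fabp7 highest at 768 UMIs, and 27 of the 34 genes of the dividing list, among them Mki67 and Top2a, had 0 UMIs. It came from a second clustering of the astrocyte-led cluster, and all 13 astrocyte genes were detected in it as well, with Slc1a2 at 2663 UMIs. The dividing-like class had 37 barcodes, with 3 and 9 in the WT and 8 and 17 in the Dp(10)2Yey libraries. It was led by Car1, Prc1 and Top2a and all 34 genes of its list were detected, but the 229 UMIs of Car1, a carbonic anhydrase gene, came from 1 barcode of Dp(10)2Yey replicate 2. The immature neuron-like class had 77 barcodes, with 12 and 20 in the WT and 15 and 30 in the Dp(10)2Yey libraries, was led by Hecw1, Neurod6 and Neurod2, and had all 28 genes of its list. Median depth was 4612.5 UMIs in the progenitor, 7837 in the dividing and 4492 in the immature neuron class.

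Markers of other cells were present in each stage class, and their part in the levels below was not tested. The astrocyte list summed to 28283 CPM (counts of UMIs per 1000000 UMIs of the class) in the progenitor class, far above the 6205 CPM of the progenitor list itself, and astrocytes in this class are not told apart from progenitors. Its sums were 23146.5 and 24626 CPM in the WT and 27885.5 and 31287 CPM in the Dp(10)2Yey libraries. The oligodendrocyte list had 10 of 10 genes in the same class and summed to 0 and 517 CPM in the WT and 6155 and 491 CPM in the Dp(10)2Yey libraries. Dp(10)2Yey replicate 1 was thus far above the other libraries. All 13 microglia genes were found in the dividing class, led by C1qa with 178 UMIs, at summed levels of 0 and 64.4 CPM in WT against 5276 and 3324 CPM in Dp(10)2Yey. In the immature neuron class the same 13 genes, again led by C1qa with 54 UMIs, summed to 72.1 and 1153 CPM in WT and 87.6 and 1018 CPM in Dp(10)2Yey, with replicate 2 high in both genotypes. The oligodendrocyte precursor list was found with 9 of 9 genes in the dividing class, led by Olig1 with 63 UMIs, at 0, 1804, 919 and 453 CPM in WT replicates 1 and 2 and Dp(10)2Yey replicates 1 and 2. It was also complete in the immature neuron class, with Olig1 at 53 UMIs and sums of 1244, 600.3, 62.5 and 435 CPM. Of the 8 Cajal-Retzius genes only Nhlh2 was detected in the immature neuron class, at 45 UMIs, and Reln and Trp73 were at 0.

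The 9 genes lie on 9 different chromosomes (GRCm38, GENCODE release M21), and 0 of them lie on chromosome 10. Sox11 (ENSMUSG00000063632) at chr12:27334264-27342574 and Sox4 (ENSMUSG00000076431) at chr13:28948919-28953713 each consist of 1 exon on the minus strand. Igfbpl1 (ENSMUSG00000035551) is at chr4:45809468-45826923, Neurod1 (ENSMUSG00000034701) at chr2:79452521-79456751 and Dcx (ENSMUSG00000031285) at chrX:143855842-143933311, all on the minus strand. Prox1 (ENSMUSG00000010175) at chr1:190118035-190170714, Calb2 (ENSMUSG00000003657) at chr8:110137502-110168210 and Hopx (ENSMUSG00000059325) at chr5:77086988-77115121 are also on the minus strand. Eomes (ENSMUSG00000032446) at chr9:118478212-118486132 is the only member on the plus strand. Neurod1 lies wholly within the gene Cerkl on the same strand, so molecules from its span could be split between the 2 genes, and Cerkl had 34 UMIs in all kept barcodes. Opposite-strand genes overlap Sox4 (Gm26735, 1027 UMIs), Prox1 (Prox1os, 428 UMIs, and Gm28172, 13 UMIs), Hopx (Hopxos, 52 UMIs), Neurod1 (Gm26755, 3 UMIs) and Eomes (Gm33460, 1 UMI).

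Promoters were available from RefSeq (GRCm38.p6) for 7 of the 9 genes, as 10 windows from 250 bases before to 50 bases after a start, and Igfbpl1 and Calb2 had none in the table. The 4 printed here belong to the members with a single start in the table, with the letters CANNTG in capitals. CANNTG is the E-box core that basic helix-loop-helix proteins such as Neurod1 bind, and the same letters are found on both strands because the motif reads alike in both directions. The Sox11 window (chr12:27342669-27342968, minus strand) held 2 matches, the Sox4 window (chr13:28953650-28953949, minus strand) 1, the Neurod1 window (chr2:79456587-79456886, minus strand) 1 and the Eomes window (chr9:118477939-118478238, plus strand) 0.
Sox11: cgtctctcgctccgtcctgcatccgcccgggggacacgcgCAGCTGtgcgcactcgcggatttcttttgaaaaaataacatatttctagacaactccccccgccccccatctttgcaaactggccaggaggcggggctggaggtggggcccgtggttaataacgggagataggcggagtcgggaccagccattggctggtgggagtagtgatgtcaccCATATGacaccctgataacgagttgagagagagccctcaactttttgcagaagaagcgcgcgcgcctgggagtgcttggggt
Sox4: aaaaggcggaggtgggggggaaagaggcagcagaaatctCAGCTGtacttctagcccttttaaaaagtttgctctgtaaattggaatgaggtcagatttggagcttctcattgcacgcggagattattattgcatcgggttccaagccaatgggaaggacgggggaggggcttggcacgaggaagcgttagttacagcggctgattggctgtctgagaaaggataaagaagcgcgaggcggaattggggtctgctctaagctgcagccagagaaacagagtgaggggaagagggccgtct
Neurod1: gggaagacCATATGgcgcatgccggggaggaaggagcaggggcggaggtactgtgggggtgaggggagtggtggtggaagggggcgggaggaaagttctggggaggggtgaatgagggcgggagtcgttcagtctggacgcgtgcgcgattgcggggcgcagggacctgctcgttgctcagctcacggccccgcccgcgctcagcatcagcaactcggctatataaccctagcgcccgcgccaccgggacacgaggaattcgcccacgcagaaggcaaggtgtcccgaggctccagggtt
Eomes: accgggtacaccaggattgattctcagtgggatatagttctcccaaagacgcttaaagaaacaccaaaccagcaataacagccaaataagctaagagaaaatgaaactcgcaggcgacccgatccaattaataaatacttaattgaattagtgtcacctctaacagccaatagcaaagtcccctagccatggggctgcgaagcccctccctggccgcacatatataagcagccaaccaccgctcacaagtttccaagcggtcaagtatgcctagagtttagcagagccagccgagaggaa
CANNTG was in 6 of the 10 member windows and in 72.3% of all 32851 promoters of the table. CCAAT was in 8 of 10 member windows and 37.4% of all promoters, and TATANA in 5 of 10 and 24.7%. Both were searched on both strands and free to share letters with another motif. The Dcx windows (chrX:143933075-143933374 and chrX:143933170-143933469) overlap each other, and each is counted for CCAAT and for TATANA. Single matches are frequent in windows of 300 bases, and a match describes letters only.

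Hopx, a small homeodomain protein that does not bind DNA and marks quiescent stem cells as well as astrocytes, was the member of the progenitor class. Its level there was 4849 and 6126 CPM in the WT and 3746 and 4708 CPM in the Dp(10)2Yey libraries. The dividing class had 53.5, 25.8, 386 and 69.7 CPM and the immature neuron class 18.0, 48.0, 25.0 and 73.5 CPM (WT replicates 1 and 2, then Dp(10)2Yey replicates 1 and 2). Every library was highest in the progenitor class, and its lowest value, 3746 CPM, was above every library of the rest of the astrocyte-led cluster (993 to 1277 CPM). The progenitor class held 1437 UMIs of Hopx, 31.1% of all its UMIs, against 42.2% in this rest of 813 barcodes. The rest was not named from markers of its own sub-clusters and is no clean astrocyte class. It holds 287 shallow barcodes led by Mbp, Hpcal4 and Mobp (median 777 UMIs), 203 led by Gm26870, Gm10800 and Gm10801 (median 1104 UMIs) and 18 led by Camk2a, Psd and Slc17a7, so its levels are not those of astrocytes alone. A sub-cluster of 21 barcodes led by C1qa was left out of it.

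Eomes (Tbr2), the T-box factor of intermediate progenitors, had 0 UMIs in the progenitor class, which allows up to 9.89 CPM at this depth. In the dividing class it reached 321 and 193 CPM in WT and 40.0 and 134 CPM in Dp(10)2Yey, and in the immature neuron class 126, 144, 300.2 and 204 CPM. The WT libraries were higher in the dividing class and the Dp(10)2Yey libraries in the immature neuron class, so the 2 stages overlapped (47 UMIs in 37 barcodes and 79 UMIs in 77). These 2 classes held 33.3% and 56.0% of all Eomes UMIs. The T cell and NK cell-like class, a lineage that also uses Eomes, had 44.1 CPM from 4 UMIs.

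Sox4 and Sox11, the related SoxC factors of neuronal commitment, were present across dividing and immature neuron barcodes. Sox11 was at 0 and 91.2 CPM in the WT and 43.8 and 47.5 CPM in the Dp(10)2Yey libraries of the progenitor class. It was at 1765, 1637, 639.5 and 976 CPM in the dividing class and at 2884, 3109.7, 4778 and 3262 CPM in the immature neuron class. All 4 libraries were ordered progenitor, dividing, immature neuron, with no overlap between the classes. Sox4 was at 399.9, 137, 87.6 and 119 CPM in the progenitor class, at 2246, 1005, 506 and 1069 CPM in the dividing class and at 1964, 1849, 3527 and 2379.9 CPM in the immature neuron class. WT replicate 1, with only 3 dividing barcodes, was the library in which Sox4 was higher in the dividing class, and the dividing and immature neuron ranges overlapped. Gm26735, on the strand opposite to Sox4, had 248 UMIs in the immature neuron and 61 in the dividing class.

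Igfbpl1, an insulin-like growth factor binding protein-like gene of early neuroblasts, was at a similar level in the immature neuron-like barcodes of all libraries. The 4 libraries had 2379 and 2449 CPM in WT and 2289 and 2595 CPM in Dp(10)2Yey, a mean of 2428 ± 129 CPM (SD, n = 4 libraries). In the dividing class the values were 160.4, 941, 199.9 and 593 CPM, so both replicates numbered 2 were above both numbered 1, and in the progenitor class a single UMI in WT replicate 2 was counted. The library ranges of the 3 stages did not overlap. The immature neuron class held 70.2% of all Igfbpl1 UMIs.

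Neurod1, the basic helix-loop-helix factor of newborn granule neurons, was at 1388 and 1681 CPM in WT and 2464 and 1769 CPM in Dp(10)2Yey immature neuron-like barcodes. The dividing class had 107, 219, 0 and 98.8 CPM and the progenitor class 1 UMI in Dp(10)2Yey replicate 2. The lowest immature neuron library was thus above the highest dividing library, and 79.2% of all Neurod1 UMIs were in the immature neuron class. Cerkl, which spans Neurod1, had 7 UMIs there against 727 of Neurod1. Prox1, the homeobox factor that specifies and maintains granule cell identity and is also used in the oligodendrocyte lineage, was already present in progenitor barcodes at 49.99, 76.0, 109.5 and 55.4 CPM. Its dividing levels of 214, 51.5, 107 and 134 CPM overlapped those of the progenitor class, whereas the immature neuron levels of 703, 804, 650.4 and 803 CPM were above both in every library.

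Dcx, a microtubule-associated protein of migrating young neurons, was at 541 and 564 CPM in WT and 700.4 and 605 CPM in Dp(10)2Yey immature neuron-like barcodes. In the dividing class it was at 0, 206, 53.3 and 98.8 CPM, and in the progenitor class a single UMI was seen in WT replicate 1. The immature neuron libraries were all above the dividing ones. Calb2 (calretinin), a calcium buffer of early postmitotic granule neurons, was at 1459.8 and 997 CPM in WT and 951 and 1198 CPM in Dp(10)2Yey immature neuron-like barcodes. Dividing barcodes had 2 UMIs in all, both in WT replicate 2, and progenitor barcodes had 1. Per UMI counted, Calb2 was 196 times as high in the immature neuron as in the dividing class, with a 95% counting interval of 54.0 to 1625 that reflects those 2 UMIs.

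**Figure D1:**
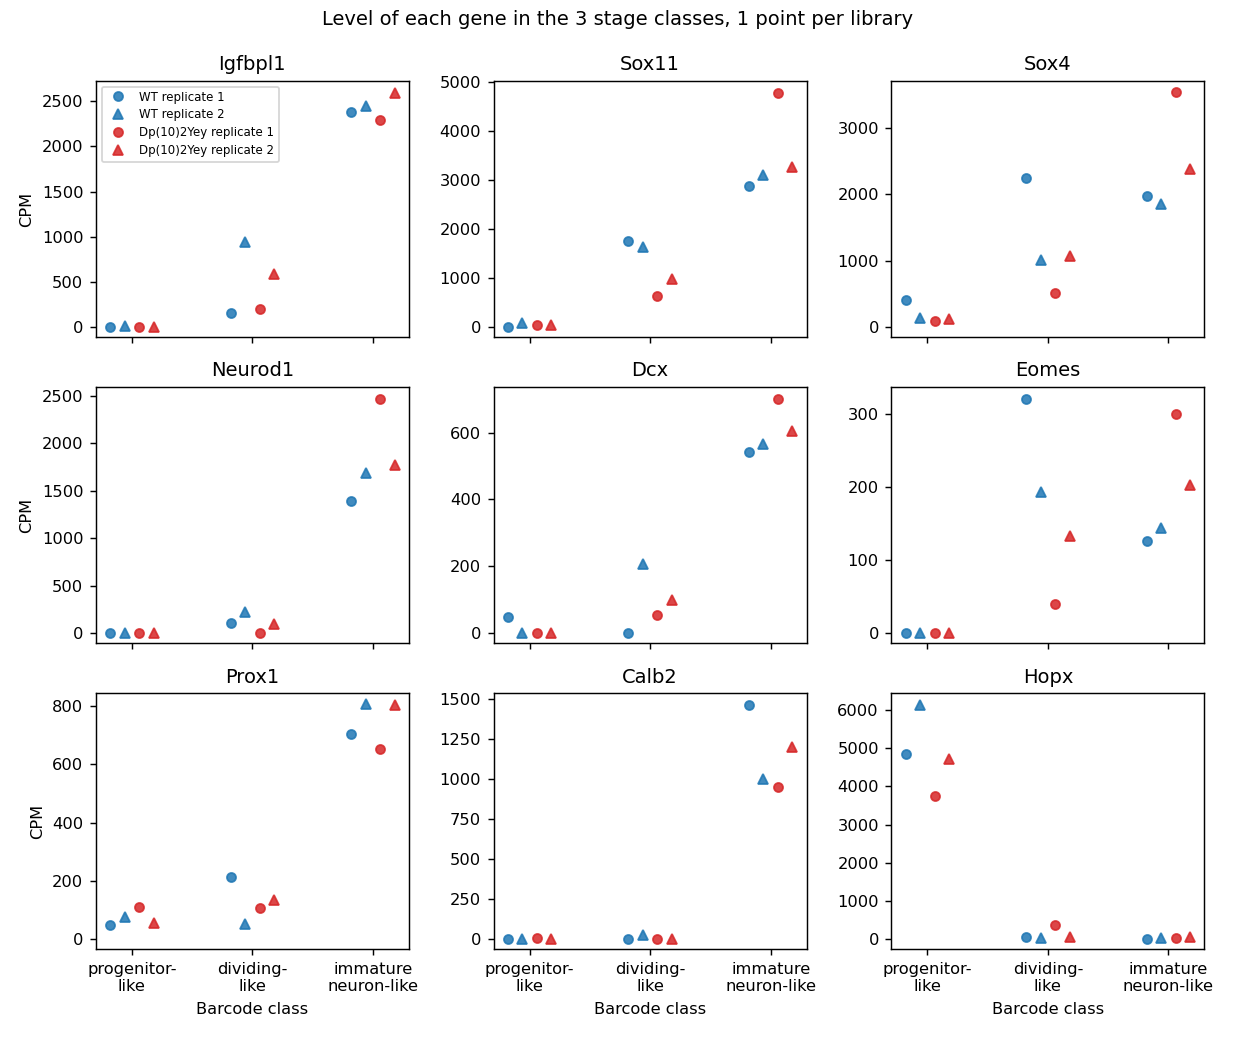
Level (CPM, vertical axis from 0, scaled per gene) of each gene in the progenitor-like, dividing-like and immature neuron-like classes, with 1 point per library (blue WT, red Dp(10)2Yey; circle replicate 1, triangle replicate 2). Hopx is highest in the progenitor class in 4 of 4 libraries, Eomes and Sox4 overlap between dividing and immature neuron classes, and the other 6 genes are highest in the immature neuron class in 4 of 4.

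Among the 3 stage classes and with the libraries summed, 8 of the 9 genes were highest in the immature neuron class and Hopx in the progenitor class. By library this held in 3 of 4 for Sox4, in 2 of 4 for Eomes and in 4 of 4 for the others. Over all named classes Dcx was higher in the GABAergic neuron-like one (752 against 607 CPM), with overlapping library ranges. To order the genes among themselves, the log2 ratio of immature neuron to dividing CPM was used after adding 10 CPM to each, which also sets its size where a library was at 0. This ratio compares 2 classes and gives no order in time. Calb2 had the highest ratio at 6.19 (lowest to highest library 4.81 to 7.20), from 2 UMIs in the dividing class. Neurod1 followed at 4.01 (2.88 to 7.95). Prox1 at 2.64 (1.67 to 3.73), Dcx at 2.39 (1.41 to 5.78) and Igfbpl1 at 2.12 (1.37 to 3.81) formed the middle. Sox11 at 1.66 (0.71 to 2.88), Sox4 at 1.29 (-0.19 to 2.78) and Eomes at 0.51 (-1.28 to 2.63) had the lowest ratios of the 8, and Hopx was at -1.19 (-3.50 to 0.70). The library ranges of every neighbouring pair in this order overlapped, so only members far apart, such as Calb2 and Sox11, were separated beyond the spread. These ranges span the genotypes, and for 4 genes both Dp(10)2Yey libraries were above both WT libraries. Eomes was at -1.28 and -0.40 in WT and 2.63 and 0.57 in Dp(10)2Yey, Sox11 at 0.71 and 0.92 against 2.88 and 1.73, Sox4 at -0.19 and 0.87 against 2.78 and 1.15, and Neurod1 at 3.58 and 2.88 against 7.95 and 4.03. Among genes with at least 100 UMIs in the 2 classes, a limit set after seeing the data, the same held for 4 of 8 members and 18.2% of 1151 genes, and the reverse for 0 of 8 and 14.5%. The WT dividing class was 3 and 9 barcodes, and WT replicate 1 stood apart in it. Its dividing list summed to 2674 CPM against 15838 in the other WT library and 10819 and 8340 in the Dp(10)2Yey libraries, while its progenitor list (4225 CPM) and intermediate progenitor list (5455 CPM) were the highest of the 4 libraries. Dp(10)2Yey replicate 1 had the highest ratio for all 4 genes. By the leading lists described below, 0 of its 8 dividing-like barcodes were led by the immature neuron list. The number was 1 and 3 in the WT libraries and 6 in Dp(10)2Yey replicate 2. The part of these library differences, of the class size and of the microglia genes in the split was not tested. The Hopx ratio moved to 0.024 without Dp(10)2Yey replicate 1, and the Eomes ratio ranged from 0.083 to 0.78 with 1 library left out. From progenitor to dividing, the same ratio was 4.14 for Sox11 (3.59 to 7.47) and 2.83 for Sox4 (2.40 to 3.07). It was 0.53 for Prox1 (-0.48 to 1.90), whose direction differed between libraries, and -5.10 for Hopx. No ratio is given for Eomes, at 0 in progenitor barcodes, or for Igfbpl1, Neurod1, Dcx and Calb2, with 1 UMI each there.

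The dividing class was mixed, which bears on this order. By the list with the highest share of its genes detected, 15 of the 37 barcodes were led by the intermediate progenitor list, 10 by the immature neuron list, 7 by the oligodendrocyte precursor list, 3 by the microglia list and 2 by the progenitor list. The next list came within 0.1 of the leading share in 12 of the 27 barcodes led by neither the precursor nor the microglia list. In the 15 barcodes led by the intermediate progenitor list, Igfbpl1 was at 591, Sox11 at 843, Eomes at 164 and Hopx at 193 CPM. In the 10 led by the immature neuron list, Igfbpl1 was at 1158, Sox11 at 2315, Neurod1 at 325, Eomes at 155 and Hopx at 0 CPM. The 7 led by the oligodendrocyte precursor list had Sox11 at 618 CPM (29 UMIs) and no Igfbpl1. Without the 10 barcodes led by the precursor or microglia lists, an alternative chosen after seeing the data, 8 of 9 genes remained highest in the immature neuron class. The ratios were then 6.38 for Calb2, 3.67 for Neurod1, 2.33 for Prox1, 2.12 for Dcx, 1.76 for Igfbpl1, 1.40 for Sox11, 0.96 for Sox4, 0.16 for Eomes and -1.30 for Hopx. Where classes were instead gated by at least 3 detected genes of a stage list, more than of either other, the immature neuron gate took 2409 barcodes and only 2 of 9 genes, Prox1 (1.60) and Calb2 (1.77), were highest in it. The ratio of Igfbpl1 was then -2.12, of Sox11 -2.24, of Sox4 -1.34, of Eomes -2.04, of Dcx -1.16 and of Neurod1 -0.59.

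**Figure D2:**
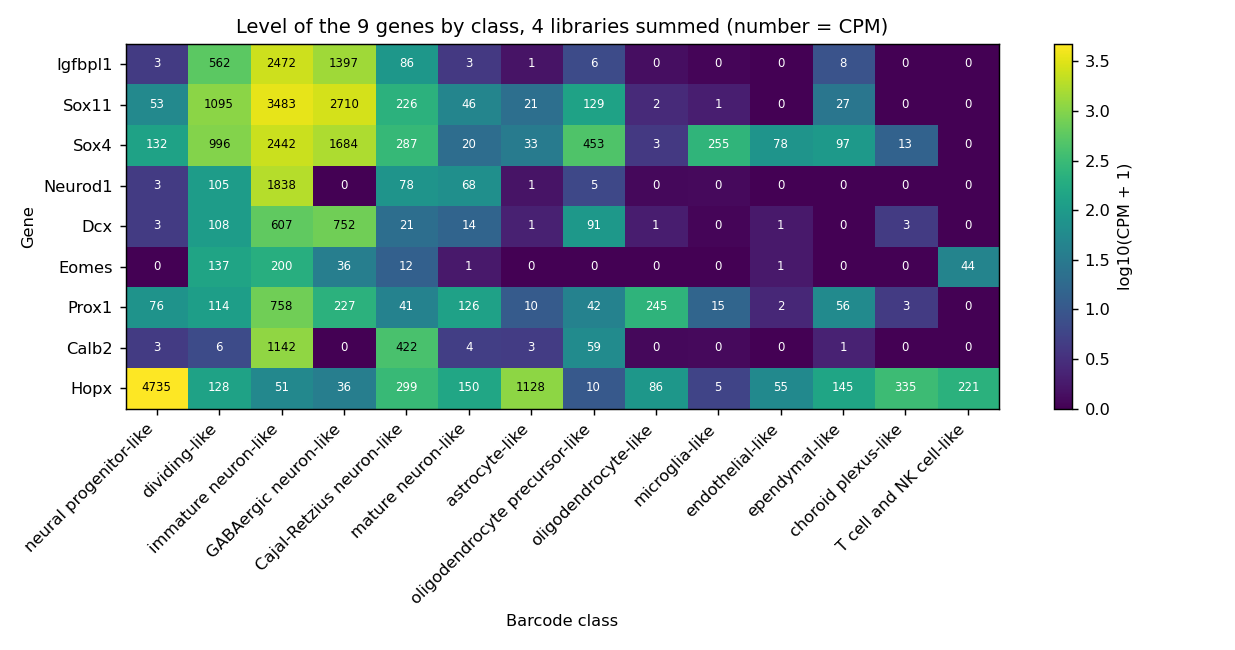
Level of each gene (rows) in each named class (columns) with the 4 libraries summed, as CPM in the cell and as log10(CPM + 1) in the colour. Igfbpl1, Sox11, Sox4 and Dcx are high in both immature neuron-like and GABAergic neuron-like barcodes, Neurod1 and Calb2 are at 0 in the latter, and Hopx is highest in progenitor-like and next in the rest of the astrocyte-led cluster (labelled astrocyte).

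For each gene the 3 stages had the same order in percent of barcodes with a UMI as in CPM over the summed libraries, except for Eomes. Microglia-like barcodes, 2001 with a median of 4097 UMIs, served as the class that should lack these genes, and the exact (Clopper-Pearson) 95% intervals given here cover counting error only. In the 77 immature neuron-like barcodes (median 4492 UMIs), Igfbpl1 was found in 98.7%, Sox11 in 97.4%, Sox4 in 96.1% and Neurod1 in 94.8%. Prox1 was found in 88.3%, Dcx in 85.7%, Calb2 in 76.6%, Eomes in 35.1% (24.5 to 46.8%) and Hopx in 16.9%. The shares in microglia were 0.04998% for Igfbpl1 and Dcx, 0.300% for Sox11, 0.09995% for Neurod1 and Calb2, 1.65% for Hopx, 5.35% for Prox1 and 0 of 2001 for Eomes. Sox4 was found in 48.0% of microglia-like barcodes at 255 CPM, so microglia are no empty background for it. In the 37 dividing-like barcodes (median 7837 UMIs), Sox11 was found in 89.2%, Sox4 in 86.5%, Igfbpl1 in 56.8% (39.5 to 72.9%) and Prox1 in 51.4%. Dcx and Eomes were each found in 40.5% of them, Hopx in 24.3%, Neurod1 in 21.6% (9.83 to 38.2%) and Calb2 in 5.41%. In the 60 progenitor-like barcodes (median 4612.5 UMIs), Hopx was found in 98.3% (91.1 to 99.96%), Prox1 in 30.0% and Sox11 in 21.7%, and Igfbpl1, Neurod1, Dcx and Calb2 in 1.67% each. Eomes was in 0 of 60. Taking 0 as up to 3 counts, which is not an exact interval, allows a share of up to 5% of barcodes with a UMI. That sets no limit on cells that express Eomes. Sox4, in 33.3%, was below the microglial share, so nothing is read from its share.

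Since the dividing class was the deepest, shares were also computed for barcodes thinned each barcode to 1000 UMIs, which left out 1 immature neuron-like, 0 dividing-like, 0 progenitor-like and 78 microglia-like barcodes. Thinned shares in the immature neuron class were 89.6% for Sox11, 86.2% for Igfbpl1, 83.1% for Sox4, 74.3% for Neurod1, 57.1% for Calb2, 51.5% for Prox1 and 41.5% for Dcx. In the dividing class they were 56.1% for Sox11, 50.7% for Sox4, 33.9% for Igfbpl1, 10.5% for Prox1, 9.60% for Neurod1, 9.56% for Dcx and 0.610% for Calb2. Eomes went from the higher share in the dividing class as deposited to 11.8% there against 13.4% in the immature neuron class, the same direction as its CPM, and no order between these stages is read from its share. At 500 UMIs the immature neuron shares fell by more than 1.5 times for Prox1 (31.1%), Dcx (24.3%), Eomes (7.47%) and Hopx (2.35%). Thinned Hopx at 1000 UMIs was at 93.3% in the progenitor, 7.15% in the dividing and 4.61% in the immature neuron class. Sox11 at 6.41% and Prox1 at 7.04% in the progenitor class were above the thinned microglial shares of 0.116% and 1.36%, and Sox4 at 9.91% was below its 19.96%.

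**Figure D3:**
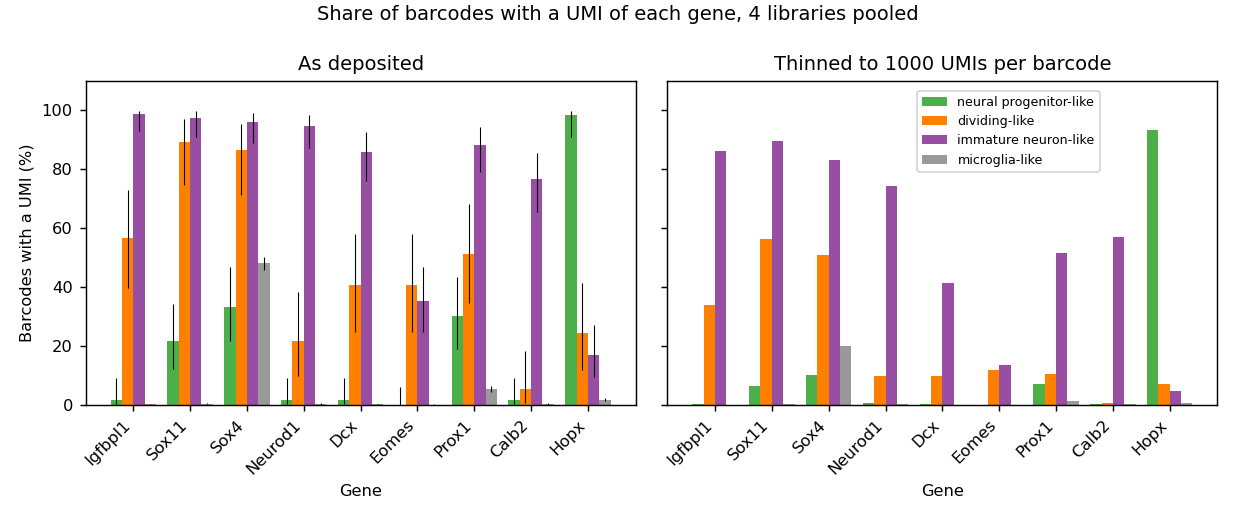
Percent of barcodes with a UMI of each gene in 4 classes with the libraries pooled, as deposited (left, bars with exact 95% intervals that cover counting error only) and after thinning each barcode to 1000 UMIs by calculation (right). Igfbpl1 goes from 98.7% to 86.2% in immature neuron-like and from 56.8% to 33.9% in dividing-like barcodes, and Sox4 is the gene found in many microglia-like barcodes.

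The genes were found together in the same barcodes. Immature neuron-like barcodes held a median of 7 of the 9 genes, with 71 of 77 holding at least 6 and 74 at least 4, and 1 barcode of WT replicate 2 holding none. Dividing-like barcodes held a median of 5, with 25 of 37 holding at least 4, 11 at least 6 and 2 none. Progenitor-like barcodes held a median of 2, with 3 of 60 holding at least 4. GABAergic neuron-like barcodes held a median of 4 and microglia-like barcodes of 1, with 0 of 2001 of the latter holding 4 or more.

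Within the dividing class Sox11 was in 33 of 37 barcodes, so that most barcodes with another member also had it is close to what its share alone gives. Each of the 21 barcodes with Igfbpl1, 15 with Dcx, 15 with Eomes, 19 with Prox1, 8 with Neurod1, 9 with Hopx and 2 with Calb2 also had Sox11, whereas 2 of the 32 with Sox4 did not. Sox4 was present in all barcodes with Igfbpl1, Dcx, Eomes, Neurod1 or Hopx in 18 of 19 with Prox1 and in 1 of 2 with Calb2. Igfbpl1 was present in 8 of 8 barcodes with Neurod1, 13 of 15 with Dcx and 14 of 15 with Eomes. For each pair, the joint count was set beside the product of the shares. Igfbpl1 and Eomes were found together in 14 barcodes against 8.51, Neurod1 and Dcx in 6 against 3.24, Dcx and Eomes in 9 against 6.08, and Eomes and Hopx in 7 against 3.65. Of 32 pairs with a product of at least 1 barcode, 28 had more joint barcodes than the product, with a median ratio of 1.16 (0.578 to 1.92). Barcodes of this class differ in depth and in leading list, and the part of these in the joint counts was not tested.

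In the immature neuron class 33 of 36 pairs were above the product, but by little, with a median ratio of 1.03 (0.803 to 1.97). The number of pairs above was 15 among the 74 barcodes with at least 2000 UMIs and 12 without WT replicate 2, the library with the barcode that had none of the 9 genes. Prox1 and Calb2 shared 56 barcodes against 52.1, and Dcx and Eomes 26 against 23.1. Eomes and Calb2, far apart in the order of ratios above, shared 17 against 20.7, and Calb2 and Hopx 8 against 9.96. Eomes and Hopx shared 9 barcodes against 4.56, the highest ratio in the class. In the progenitor class 4 of 6 pairs were above the product and 0 without Dp(10)2Yey replicate 2. Over all 174 stage barcodes the ratio was above 1 in 28 of 36 pairs, with the 8 pairs of Hopx all below it (0.312 with Calb2, 9 barcodes against 28.9, to 0.822 with Eomes). Neurod1 and Calb2 had the highest ratio, 59 barcodes against 29.2.

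**Figure D4:**
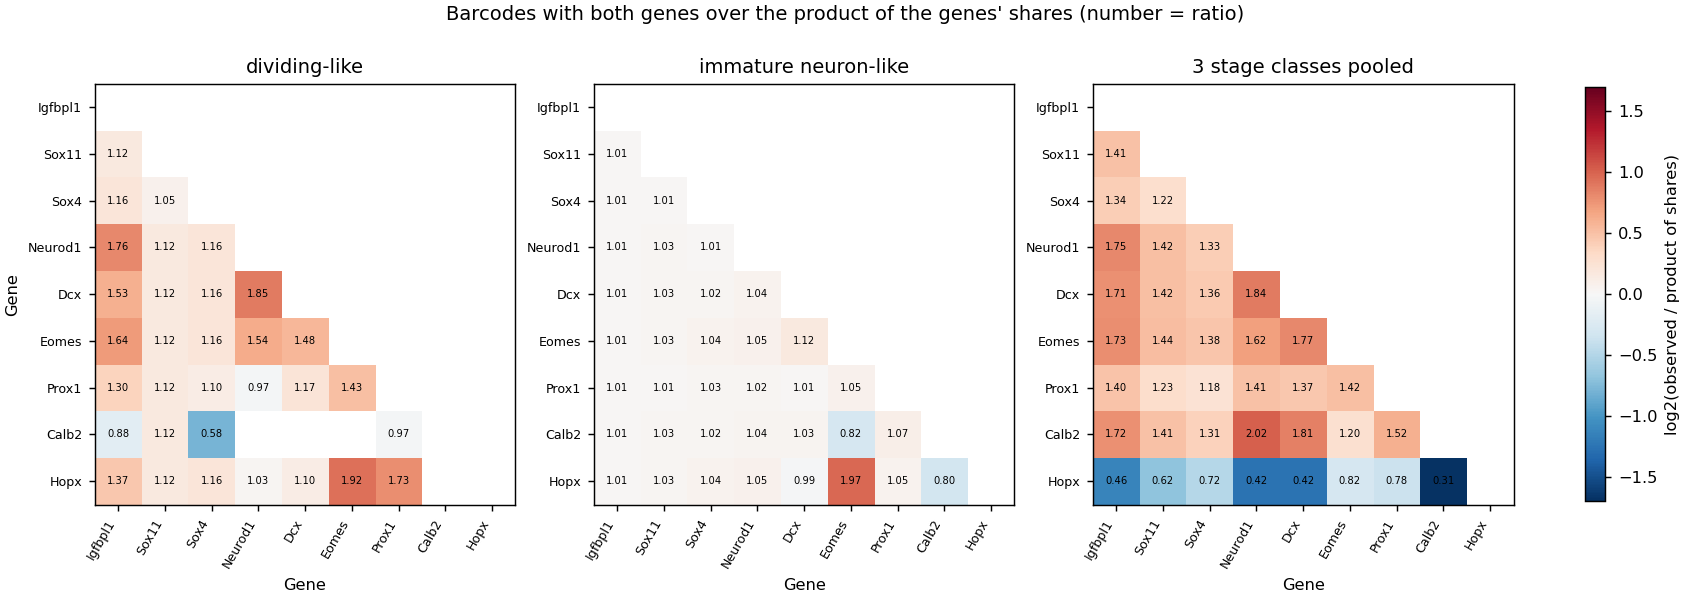
Barcodes with both genes of a pair over the number the product of the genes' shares gives, as the ratio in the cell and as its log2 in the colour, for dividing-like barcodes, immature neuron-like barcodes and the 3 stage classes pooled (blank cells have a product under 1). Ratios in the immature neuron class lie close to 1, dividing-like pairs reach 1.92 for Eomes and Hopx, and in the pooled panel every pair with Hopx is below 1.

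Outside the stage classes, the nearest class was the GABAergic neuron-like one, 24 barcodes with a median of 3031.5 UMIs led by Dlx6os1, Nrxn3 and Sp9. It had Sox11 at 2710.5, Sox4 at 1684, Igfbpl1 at 1397 and Dcx at 752 CPM, and the library ranges of these 4 genes overlapped those of the immature neuron class. For Igfbpl1 the overlap rests on WT replicate 1, where the class was 1 barcode with 7 UMIs of the gene (2395 CPM), and the other libraries, at 1209 to 1670 CPM, were below every immature neuron library. Neurod1 and Calb2 were at 0 of 24 barcodes in the GABAergic neuron-like class, and Prox1 was at 227 CPM. Taken as up to 3 counts, which is not an exact interval, 0 of 24 allows up to 12.5% of barcodes with a UMI. That sets no limit on cells that express Neurod1 or Calb2. An unnamed cluster of 47 shallow barcodes (median 968 UMIs) carried Igfbpl1 at 956, Sox11 at 1275, Neurod1 at 449.9 and Calb2 at 712 CPM, with Neurod1 and Calb2 below the immature neuron class in every library. Cajal-Retzius neuron-like barcodes, which are known to hold calretinin, had Calb2 at 422 CPM over a library range of 106 to 672.

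Glial classes held part of the counts of several members. Oligodendrocyte-like barcodes held 59.9% of all Prox1 UMIs (1269 UMIs at 245 CPM), with a library range of 227 to 260 CPM that did not overlap the immature neuron class. Oligodendrocyte precursor-like barcodes held 32.1% of Dcx UMIs at 90.5 CPM and 16.6% of Calb2 UMIs at 59.1 CPM, and Sox4 was at 453 and Sox11 at 129 CPM there. The 12 Igfbpl1 and 11 Neurod1 UMIs of this class came from 1 barcode of WT replicate 1. Microglia-like barcodes held 43.1% of all Sox4 UMIs (2170 UMIs in 2001 barcodes). Choroid plexus-like barcodes had Hopx at 335 CPM.

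Genes with the most similar pattern over the 13 clusters were found by the Pearson correlation of log2(CPM + 10), among 11926 genes with at least 100 UMIs, as a description of clusters that share libraries. These are clusters of the first pass, where dividing, immature neuron and GABAergic neuron-like barcodes and the unnamed 47 were together in 1 cluster, so likeness does not tell these stages apart. Igfbpl1 was nearest to Mex3a (r = 0.959), Dpysl5 (0.959) and Scrt2 (0.9503), and Neurod1 to Srrm4 (0.988), Elavl2 (0.966) and Scrt2 (0.957). Sox11 was nearest to Serf1 (0.947), Usp29 (0.945) and H1fx (0.943), and Sox4 to its opposite-strand neighbour Gm26735 (0.949), Smad2 (0.930) and Hist1h4d (0.898). Eomes was nearest to Mki67 (0.971), Nusap1 (0.964) and Fbxo5 (0.962). Dcx was nearest to Mex3b (0.943), Gpr45 (0.940) and Mex3a (0.931), and Calb2 to Dpysl5 (0.949), Aff2 (0.946) and Elavl4 (0.927). Prox1 was nearest to Prox1os (0.931), Kif3c (0.927) and Trim2 (0.916), and Hopx, with the lowest values, to Prdx6 (0.843), Gcat (0.824) and Mtx3 (0.819).

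The number of stage barcodes was then compared between genotypes, with libraries as the unit. Progenitor-like barcodes were 0.394 and 0.773% of kept barcodes in the WT and 1.11 and 1.27% in the Dp(10)2Yey libraries. Dividing-like barcodes were 0.296 and 0.535% in WT and 0.593 and 0.772% in Dp(10)2Yey. Both Dp(10)2Yey libraries were above both WT libraries in these 2 classes. In the rest of the astrocyte-led cluster this also held, with 13.3 and 11.2% in WT and 13.6 and 13.9% in Dp(10)2Yey. T cell and NK cell-like barcodes had 0.296 and 0.119% against 0.445 and 0.499%. Both were below in endothelial-like barcodes (5.82 and 5.53% in WT, 4.01 and 4.49% in Dp(10)2Yey). So were they in Cajal-Retzius neuron-like barcodes, at 0.789 and 1.01% against 0.668 and 0.772%. The split was thus not particular to the stage classes. All 3 dividing-like barcodes led by the microglia list were in Dp(10)2Yey. Without those and the 7 led by the oligodendrocyte precursor list, an alternative chosen after seeing the data, the shares were 0.296 and 0.357% in WT and 0.371 and 0.590% in Dp(10)2Yey, and the difference of the means fell from 0.267 to 0.154 percentage points (exact p = 0.333, n = 2). The means were 0.584 ± 0.268% against 1.19 ± 0.112% for the progenitor class (SD, n = 2; exact two-sided permutation p = 0.333) and 0.416 ± 0.169% against 0.683 ± 0.126% for the dividing class (exact p = 0.333). The dividing difference became 0.147 without WT replicate 1 and 0.178 with Dp(10)2Yey replicate 2 left out. The genotypes overlapped in it with doublets removed (0.231), with the 9 genes among the features (0.177), at resolution 0.5 (0.207) and by gate (0.188), and the progenitor difference by gate was 0.0971 (exact p = 1, n = 2). With 2 libraries against 2, 0.333 is the smallest p this test allows, so no threshold could be passed. Immature neuron-like barcodes were 1.18 and 1.19% in WT and 1.11 and 1.36% in Dp(10)2Yey (difference 0.0507 percentage points, exact p = 1, n = 2). That difference became -0.0738 without Dp(10)2Yey replicate 2.

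Counts per library over all kept barcodes gave the totals of each gene. Hopx had 406 and 1202 UMIs (137 and 178 CPM) in WT and 1123 and 1895 UMIs (224 and 213 CPM) in Dp(10)2Yey, so both Dp(10)2Yey libraries were above both WT libraries. Neurod1 had 115 and 216 UMIs (38.9 and 32.0 CPM) in WT and 213 and 374 UMIs (42.5 and 42.1 CPM) in Dp(10)2Yey, again without overlap. For Sox11 there were 318 and 669 UMIs (108 and 99.1 CPM) in WT and 601 and 939 UMIs (120.0 and 106 CPM) in Dp(10)2Yey. These ranges overlapped, as did those of the other 6 genes. Sox4 had 716 and 1099 UMIs (242 and 163 CPM) in WT and 1138 and 2082 UMIs (227 and 234 CPM) in Dp(10)2Yey, with WT replicate 2 low. Igfbpl1 had 170 and 368 UMIs (57.5 and 54.5 CPM) in WT against 238 and 617 UMIs (47.5 and 69.4 CPM) in Dp(10)2Yey. The 2 Dp(10)2Yey values of Igfbpl1 enclosed the WT values. For Prox1 the counts were 246 and 704 UMIs (83.2 and 104.3 CPM) in WT and 441 and 727 UMIs (88.0 and 81.8 CPM) in Dp(10)2Yey. Calb2 had 126 and 177 UMIs (42.6 and 26.2 CPM) in WT and 116 and 316 UMIs (23.2 and 35.5 CPM) in Dp(10)2Yey. Replicate 1 was the higher WT library and the lower Dp(10)2Yey library for Calb2. The least abundant members were Dcx, with 78 and 163 UMIs (26.4 and 24.2 CPM) in WT and 127 and 215 UMIs (25.3 and 24.2 CPM) in Dp(10)2Yey, and Eomes, with 18 and 33 UMIs (6.09 and 4.89 CPM) and 28 and 62 UMIs (5.59 and 6.97 CPM).

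None of the 9 genes passed the test between genotypes over all kept barcodes (edgeR's quasi-likelihood test, adjusted p under 0.01), and neither did any of the 13807 genes tested (0%). At an unadjusted p under 0.05 there were 377 of those genes and 1 member, Hopx. Its log2 fold change of Dp(10)2Yey over WT was 0.47 (SE 0.16), with means of 158 ± 28.8 against 219 ± 7.76 CPM (SD, n = 2) and an edgeR adjusted p of 0.9999. For Neurod1 the log2 fold change was 0.27 (SE 0.16, edgeR adjusted p = 0.9999), with 35.5 ± 4.89 against 42.3 ± 0.312 CPM. These 2 of 9 genes had both Dp(10)2Yey libraries above both WT libraries, as had 13.3% of all genes, and 0 of 9 had both below, as had 13.2%. Fold changes of the others were 0.24 for Eomes, 0.20 for Sox4, 0.13 for Sox11, 0.075 for Igfbpl1, -0.019 for Dcx, -0.15 for Prox1 and -0.17 for Calb2, and the median of the 9 was 0.13 against 0.0053 over all genes. Leaving out 1 library turned the direction of Igfbpl1 (-0.21 without Dp(10)2Yey replicate 2), Sox4 (-0.064 without WT replicate 2), Prox1 (0.035 without WT replicate 2), Calb2 (0.18 with WT replicate 1 dropped and 0.074 without Dp(10)2Yey replicate 1) and Dcx (0.040 with WT replicate 1 left out and 0.041 without Dp(10)2Yey replicate 2). DESeq2 called 4 genes, Fn1, Lars2, Cldn5 and Gm42418, all lower in Dp(10)2Yey, and the edgeR count was 87 without a filter on low counts, 4 without WT replicate 1, 0 when WT replicate 2 was left out and 2 without either Dp(10)2Yey library. In its own progenitor class Hopx was lower in both Dp(10)2Yey libraries (3746 and 4708 CPM) than in WT (4849 and 6126 CPM), opposite to its total, and the part of the progenitor share in that total was not tested. Without WT replicate 1 the log2 fold change over all barcodes was 0.30 for Hopx, and without WT replicate 2 it was 0.13 for Neurod1. With 1 library left out, that of Eomes ranged from 0.061 to 0.38 and that of Sox11 from 0.018 to 0.25.

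Within the immature neuron class, 8 of the 9 genes passed the filter on low counts, all but Hopx, and 0 of 1439 genes tested passed edgeR's test (0%; 72 at an unadjusted p under 0.05, and 0 called by DESeq2). Levels of Sox4 were 1907 ± 81.6 CPM in WT and 2954 ± 811 CPM in Dp(10)2Yey (SD, n = 2), a log2 fold change of 0.60 (SE 0.23, edgeR adjusted p = 0.945). It was the only member here at an unadjusted p under 0.05. Without Dp(10)2Yey replicate 2 the log2 fold change of Sox4 became 0.85 (SE 0.20) with an edgeR adjusted p of 0.00686, past the threshold, while over all alternatives the adjusted p ranged from 0.00686 to 0.9997. Sox11 had 2997 ± 160 against 4020 ± 1072 CPM, a log2 fold change of 0.39 (SE 0.22, edgeR adjusted p = 0.9503), and Eomes one of 0.78 (SE 0.37, edgeR adjusted p = 0.945). Neurod1 was at 0.42 (SE 0.23) and Dcx at 0.20 (SE 0.27). The summed oligodendrocyte precursor list was higher in both WT libraries of this class, as given above. Other lists were split by genotype as well. Among them, the intermediate progenitor list summed to 2397 and 1321 CPM in WT and 1113 and 1080 CPM in Dp(10)2Yey. The immature neuron list summed to 17986 and 18022 CPM in WT and 18499 and 19198 CPM in Dp(10)2Yey. The part of these lists in the fold changes was not tested. Without Dp(10)2Yey replicate 1 the log2 fold change was 0.33 for Sox4, 0.13 for Sox11 and 0.20 for Neurod1, and with Dp(10)2Yey replicate 2 dropped it was 0.63 for both Sox11 and Neurod1. In gated classes it was 0.23 for Sox4, 0.13 for Sox11 and 0.035 for Dcx. In the 5 genes Sox4, Sox11, Eomes, Neurod1 and Dcx both Dp(10)2Yey libraries were above both WT libraries, as they were in 19.0% of all genes tested, and in 0 of 8 were both below, as in 14.5%. In all 5 it was Dp(10)2Yey replicate 1, with 15 barcodes, that was highest. Igfbpl1 was at -0.0031, Prox1 at -0.069 and Calb2 at -0.18, and the median of the 8 was 0.29 against -0.0092 over all genes. The direction of these last 3 also turned when 1 library was left out, with Igfbpl1 at 0.11 without Dp(10)2Yey replicate 1 and 0.071 when WT replicate 2 was dropped, Prox1 at 0.0897 and 0.0949 in the same 2 fits, and Calb2 at 0.11 without WT replicate 1. The edgeR count of called genes was 3 and 2 when WT replicate 1 or 2 was left out, 6 and 8 when Dp(10)2Yey replicate 1 or 2 was left out, and 3 without the filter.

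**Figure D5:**
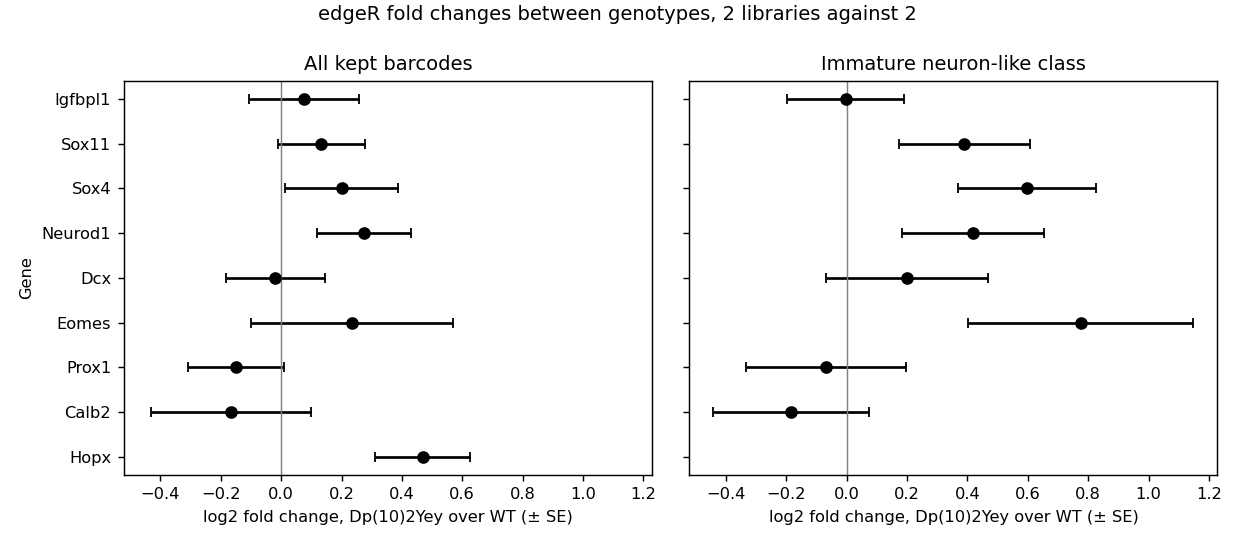
Log2 fold change of Dp(10)2Yey over WT (point) with its standard error (bar) from edgeR for each gene tested, 2 libraries against 2, over all kept barcodes (left) and within the immature neuron-like class (right, where Hopx was not tested). Over all kept barcodes Hopx is highest at 0.47, and in the immature neuron class Eomes at 0.78 and Sox4 at 0.60, none of which passed the adjusted threshold.

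In the 8 other groups with at least 10 barcodes in every library, 21 tests of members were made and 0 passed the adjusted threshold. The share of all genes called was 0.0352% in the rest of the astrocyte-led cluster, which is mixed as described, and 0% in the other 7. At an unadjusted p under 0.05 by edgeR there were 5 of 21, namely Sox11 (-1.39), Prox1 (-1.26) and Hopx (1.13) in mature neuron-like barcodes, Hopx in oligodendrocyte-like barcodes (0.66) and Sox11 in oligodendrocyte precursor-like barcodes (-0.75), all as log2 fold changes of Dp(10)2Yey over WT. The genotypes overlapped in 3 of these 5. Prox1 in mature neuron-like barcodes was at 55.0 and 212 CPM in WT and 23.2 and 99.98 CPM in Dp(10)2Yey, and Sox11 in precursor-like barcodes at 243 and 130 against 138 and 76.2 CPM. Hopx in oligodendrocyte-like barcodes was at 62.2 and 68.0 CPM in WT and 149 and 66.7 CPM in Dp(10)2Yey, so only Dp(10)2Yey replicate 1 was above WT. In mature neuron-like barcodes 4 of 4 progenitor genes (median 0.59) and 6 of 6 microglia genes (0.43) were above 0. So were 16 of 20 immature neuron genes (0.17), 2 of 11 mature granule neuron genes (-0.31) and 0 of 2 intermediate progenitor genes (-0.29). The oligodendrocyte precursor list had 1 of 1 (0.24), and 2644 of all 5030 genes were above 0. Of the microglia genes 12 of 13 (median 0.38) were above 0 in oligodendrocyte-like and 7 of 8 (0.55) in precursor-like barcodes. The immature neuron list had 8 of 12 (0.067) and 11 of 16 (0.13) above 0 in these classes. Of the dividing list 0 of 2 (-1.45) were above 0 in precursor-like barcodes. Genes at an unadjusted p under 0.05 by edgeR were 171 of 5030 in the mature neuron, 232 of 8599 in the oligodendrocyte and 292 of 8121 in the oligodendrocyte precursor class. The mature neuron-like class had a median of 1773 UMIs and 27.7% mitochondrial UMIs.

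The stage lists around the 9 genes were also without a called gene over all kept barcodes. Of the dividing list 29 of 33 tested genes were above 0 with a median log2 fold change of 0.22, and of the progenitor list 11 of 14 with a median of 0.13, beside 0.0053 over all 13807 genes, of which 7071 were above 0. The immature neuron list had 16 of 27 above 0 (median 0.088), the intermediate progenitor list 4 of 11 (median -0.048) and the mature granule neuron list 1 of 11 (median -0.50). Lists of other cells gave 8 of 13 above 0 for microglia (median 0.029) and 8 of 9 for oligodendrocyte precursors (median 0.090). Within the immature neuron class the immature neuron list was even, with 12 of 22 genes above 0 (median 0.027 against -0.0092 over all 1439 genes, of which 703 were above 0), whereas 0 of the 5 tested intermediate progenitor genes were above 0 (median -0.61) although Eomes, a factor of the same stage, was at 0.78. Few genes of the other lists were tested there, with 2 of 2 progenitor genes above 0 (median 0.46), 1 of 3 microglia genes (median -0.32), 0 of 1 oligodendrocyte precursor gene (-1.50), 0 of 1 mature granule neuron gene (-0.48) and 0 dividing genes tested.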

How the data were processed

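The deposited files hold UMI counts per gene and barcode of 4 libraries, made by the authors with Cell Ranger 3.0.2 on mm10 and called cells, not normalized. Barcodes with at least 200 genes were kept, and clusters with a median globin share over 0.1 were removed as red blood cells. Clustering used Seurat 5.3.0 (R 4.3.3) with the study's settings: genes in more than 3 cells, 2000 variable genes per library, canonical correlation integration, 50 dimensions and resolution 0.2, leaving 1991 features without the 9 genes. Clusters with stage markers and the astrocyte-led cluster were clustered again (15 components, resolution 0.5) without the 9 genes and the opposite-strand genes Prox1os and Hopxos. A cluster was named where 3 or more of its 20 genes of highest fold (a sub-cluster against the rest of its parent) were in a marker list and every other list had fewer, among the 20 and the first 10. Sub-clusters of the astrocyte-led cluster with fewer than 3 markers of any list did not meet this rule but kept the parent's name, 813 barcodes in 5 sub-clusters, and others there were named only as progenitor or astrocyte, so a sub-cluster with 10 microglia markers is unnamed. A cluster of 108 barcodes with 4 border macrophage markers is unnamed because another list had as many among the first 10. CPM were computed here as UMIs per 1000000 UMIs of a class and library. Genotypes were compared by edgeR 4.0.16 (quasi-likelihood, TMM, filterByExpr, Benjamini-Hochberg, two-sided) on UMIs summed per library, in classes with at least 10 barcodes in every library, and shares of barcodes by an exact permutation test. Everything else is description. Scrublet (scanpy 1.11.5) called 59 of 6246 barcodes (0.945%) doublets, which were kept in the values reported. Each library is from 1 mouse and is its own replicate. As a check for a library deposited more than once, counts were compared, and no pair agreed within sampling noise (chi-square per gene 5.30 to 14.9).

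The rule fixed in advance names the 9 members, the genes of the stage lists as counts, and for each member the 3 genes most like it. Other genes are named after seeing the data, as those that lead a class or a marker list in it, overlap a member or were called under an alternative. The members and lists were chosen with earlier results of these data known. The globin limit, the naming rule, the first-pass resolution and the second clustering of the astrocyte-led cluster were set after seeing the data, as were the limit for the ratios by genotype, the genes named by DESeq2 calls and the split of the dividing class by list. Alternatives were DESeq2 1.42.0, RLE size factors, no filter, a replicate block, each library left out, doublets or barcodes over 20% mitochondrial UMIs removed, a threshold of 0.05, members among the features, resolution 0.5, classes by gate, thinning to 500 UMIs and, added after seeing the data, the dividing class without barcodes led by other cells' lists. The edgeR step was also run on simulated data, of which no outcome is given here. Numbers were computed with numpy 2.4.6, scipy 1.17.1 and pandas 2.3.3 and drawn with matplotlib 3.10.9.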

Additional observations from a re-analysis of the deposited data

Results flagged for a closer look

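In 5 pairs of classes, counting only classes where edgeR tested the gene, a member had every Dp(10)2Yey library on one side of every WT library in one class and on the other side in the second, which is what drew attention to them. The difference between the log2 fold changes was not tested in any of them. Without that limit more pairs were like this, among them Sox11, Eomes and Neurod1, higher in Dp(10)2Yey in immature neuron-like and lower in dividing-like barcodes, a class too small for the test. Sox4 in oligodendrocyte-like and Sox11 in ependymal-like barcodes, too few in UMIs to be tested, were also lower in both Dp(10)2Yey libraries. Hopx was lower in both Dp(10)2Yey libraries of its own progenitor class and higher in both in mature neuron-like barcodes. The share of all genes with such a reversal was not computed, so the number of pairs is not read as a result about the members. A split in a single class was frequent. In the immature neuron class both Dp(10)2Yey libraries were above both WT libraries in 19.0% of genes tested and below in 14.5%. Over all kept barcodes these shares were 13.3% and 13.2%. In mature neuron-like barcodes, 35 of 47 and 78 of 142 in the WT libraries were over 20% mitochondrial UMIs. In the Dp(10)2Yey libraries these were 115 of 141 and 46 of 99. Sox11 was at 0.39 in immature neuron-like and -1.39 in mature neuron-like barcodes, a difference of 1.78. The mature neuron-like libraries had 88.0 and 63.4 CPM (8 and 35 UMIs) in WT and 16.6 and 32.4 CPM (5 and 12 UMIs) in Dp(10)2Yey. Neurod1 was at 0.42 and -0.54 in the same classes, a difference of 0.96, with 121 and 72.5 CPM in WT and 43.2 and 67.6 CPM in Dp(10)2Yey mature neuron-like barcodes. Dcx was at 0.20 in immature neuron-like and -0.45 in oligodendrocyte precursor-like barcodes, a difference of 0.65, the latter with 131 and 94.7 CPM in WT and 81.0 and 79.1 CPM in Dp(10)2Yey. Prox1 was at 0.30 in microglia-like barcodes (15.2 and 11.3 CPM in WT, 17.1 and 15.3 CPM in Dp(10)2Yey). It was at -0.12 in oligodendrocyte-like barcodes, a difference of 0.43, and at -0.65 in oligodendrocyte precursor-like barcodes, a difference of 0.96.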

How the results depend on the processing

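Of 211 fold changes of members refitted under 14 alternatives, 192 kept direction and side of the threshold, 18 turned direction and 1, Sox4 in the immature neuron class, passed it. The cause of each change was not tested. Over all kept barcodes the called genes went from 0 to 4 with DESeq2, to 87 without a filter and to 0 to 4 without 1 library. In the immature neuron class they went from 0 to 3 without a filter and to 2 to 8 without 1 library, where the lone library of a genotype is assumed to vary like the others. With the replicate block 5 genes (Tac2, Dbi, Cspg5, Lars2 and Gm42418) were called in the immature neuron class and 0 over all kept barcodes. Deviations of libraries with the same number correlated at -0.00162 over 13807 and 0.0351 over 1439 genes, and the labels do not say that a number marks a day, so the number was not used as a pairing. Whether it marks a shared day is not known. Without 1 library Sox4 in the immature neuron class ranged from 0.33 to 0.85. Turned fold changes, without 1 library, ranged over all kept barcodes from -0.088 to 0.041 for Dcx, -0.52 to 0.18 for Calb2, -0.064 to 0.51 for Sox4, -0.29 to 0.035 for Prox1 and -0.21 to 0.30 for Igfbpl1, and in the immature neuron class from -0.40 to 0.11 for Calb2, -0.12 to 0.11 for Igfbpl1 and -0.26 to 0.095 for Prox1. Igfbpl1 there was also at 0.041 with DESeq2, 0.080 without a filter, 0.017 without doublets, 0.0089 without high mitochondrial shares and 0.035 by gate, and Prox1 at 0.015 without a filter. By gate 2 genes were highest in the immature neuron class, and 8 in each of the other 9 alternatives. Thinned to 500 instead of 1000 UMIs, 8 of 9 genes still had their largest share in the immature neuron class, where shares fell to 74.1% for Sox11, 67.7% for Igfbpl1, 61.8% for Sox4, 54.4% for Neurod1, 38.8% for Calb2, 31.1% for Prox1, 24.3% for Dcx, 7.47% for Eomes and 2.35% for Hopx. Pairs above the product in the immature neuron class were 15 at 2000 UMIs or more and 12 to 34 without 1 library, and in the progenitor class 0 to 5. Without 1 library the share of barcodes differed by 0.419 to 0.797 percentage points for the progenitor, 0.147 to 0.387 for the dividing and -0.0738 to 0.175 for the immature neuron class, and without barcodes led by other cells' lists, added after seeing the data, by 0.154 for the dividing class. At resolution 0.5 no cluster was named progenitor, so that class has no value there. Classes of 3 to 30 barcodes per library limit every level given for a library.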
